A study of Mus musculus with 6 samples.

Results

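Polycomb, Trithorax and DNA methylation regulators are the enzymes and adaptors that set repressive and active chromatin states. The set described here holds 46 genes chosen by symbol, out of 18193 genes tested, and all 46 had a probe set on the array. Each gene was read on its brightest probe set across the 6 arrays, as log2 of the deposited intensity. By complex, the set holds 10 genes of Polycomb repressive complex PRC2 and its partners and 15 of PRC1. It also holds 3 of the Polycomb deubiquitinase PR-DUB and 8 of the MLL complexes together with Dot1l. The other members are 3 histone demethylases, 3 Tet enzymes, and 4 genes of DNA methylation, the Dnmt enzymes and Uhrf1.

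PRC2 adds a repressive methyl mark to a lysine of histone H3, and PRC1 adds ubiquitin to histone H2A and compacts chromatin. MLL enzymes, the mammalian Trithorax proteins, methylate another lysine of histone H3 at active promoters, while Dnmt enzymes methylate cytosine in DNA and Tet enzymes oxidise that mark. In blood, Bmi1 and MLL are known for sustaining stem cells, and Ezh2, Tet2, Dnmt3a and Asxl1 are recurrently mutated in blood cancers.

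The study profiled LSK cells, bone marrow cells without lineage markers that carry cKit and Sca1, the fraction that holds stem cells and early progenitors. The 3 WT mice carried Mx1-cre, and the 3 N1IC mice carried Mx1-cre with lox-stop-lox N1-IC, the active intracellular part of Notch1 behind a stop that Cre removes. All mice were 5 weeks old. PolyIC had been given 3 times from an age of 21 days, at a dose of 20 mcg per g, and LSK cells were sorted 2 weeks after the final dose. The Mx1 promoter answers to interferon, which polyIC induces, in blood and in other tissues. The treatment text in the labels names Ncstn flox/flox alleles instead of N1-IC, and the groups here follow the genotype labels. Sex was unbalanced, with 1 female of 3 in WT and 3 of 3 in N1IC. Because N1IC holds no male, a fit with sex as a covariate or with females alone rests on WT replicate 2.

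Across the series, array correlations lay between 0.985 and 0.992 within groups and between 0.968 and 0.975 across them, over all probe sets other than controls. Of the genes that define the gate, Kit lay between 11.45 and 11.94 on all arrays and was not called, and Ly6a, which encodes Sca1, was not analysed here. Of 7 measured LSK genes, 5 were lower in N1IC, and their summed intensity lay between 17055 and 19301 there against 28865 and 30436 in WT. The T lineage list gave 12 higher calls of 16, with a summed intensity between 38547 and 44969 in N1IC against 3540 and 6859 in WT. The B lineage list gave 7 lower calls of 9, with sums between 3552 and 4089 in N1IC against 17324 and 27263 in WT. Neutrophil and macrophage genes gave 2 higher and 2 lower of 13 (26271 to 41039 against 42486 to 84345). The higher calls were the macrophage genes C1qb and C1qc, and the lower ones the neutrophil granule genes Elane and Mpo. The summed intensity joins both kinds of gene. Erythroid and megakaryocyte genes gave 3 lower of 8 (3099 to 5814 against 8021 to 11124). No marker was listed at 0 on any array, but RMA intensities do not reach 0, so this says nothing about detection. These lists moved with the contrast described below, and their part in the results was not tested. In bulk RNA, fewer cells of a type and less RNA per cell cannot be told apart.

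The comparison asks how LSK cells with active Notch1 differ from WT cells. Few Polycomb, Trithorax and DNA methylation regulators passed the test, and most differences were small. The 5 that passed encode accessory or scaffold subunits, apart from the enzyme Dnmt3a, and a link between calls and subunit type was not tested. Of the 46 members, Mtf2 and Dnmt3a rose, Phf19, Phc1 and Phc3 fell, and 41 did not pass (limma, adjusted p under 0.05). The 5 calls are 10.9% of the members, against 11.8% of all 18193 genes (2144 called), so the share was near the background. Higher calls made up 3.47% and lower calls 8.31% of all genes. The groups did not overlap for 14 members, against 32.8% of all genes. The median log2 fold change of the members was -0.04 and that of all genes was -0.01. In absolute size these medians were 0.12 and 0.16.

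No called member differed by 2-fold or more, which 5.81% of all genes did. The 95% interval of the log2 fold change lay wholly within 1 of zero for 42 of the 46 members, and within 0.5 for 27. The exceptions at the wider bound were Phf19, Cbx7, Phc3 and Tet2. With sex as a covariate no member passed, where 2.47% of all genes did, and 6 members had an unadjusted p under 0.05, against 17.2% of all genes. With females alone the count was again 0, with 3.55% of genes called and 6 members at an unadjusted p under 0.05, against 18.6% of all genes. Leaving out WT replicate 1, 2 or 3 called 10.6%, 7.92% and 6.41% of all genes, and leaving out N1IC replicate 1, 2 or 3 called 6.65%, 7.48% and 7%. In these 6 fits 0 to 1 members were higher and 1 to 2 were lower. At an adjusted p under 0.01, 1 member (Phf19) and 4.09% of all genes were called. Centring each array on the median level of its genes added about 0.32 to every log2 fold change. In that fit 14 members were higher and 1 lower, with 5359 genes higher and 1012 lower (35% called) over the whole table. Higher genes then made up 84.1% of all calls, against 29.5% as first given. Repeating the quantile normalization over genes gave 3 members higher and 2 lower, with 948 genes higher and 1093 lower (11.2% called).

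**Figure D1:**
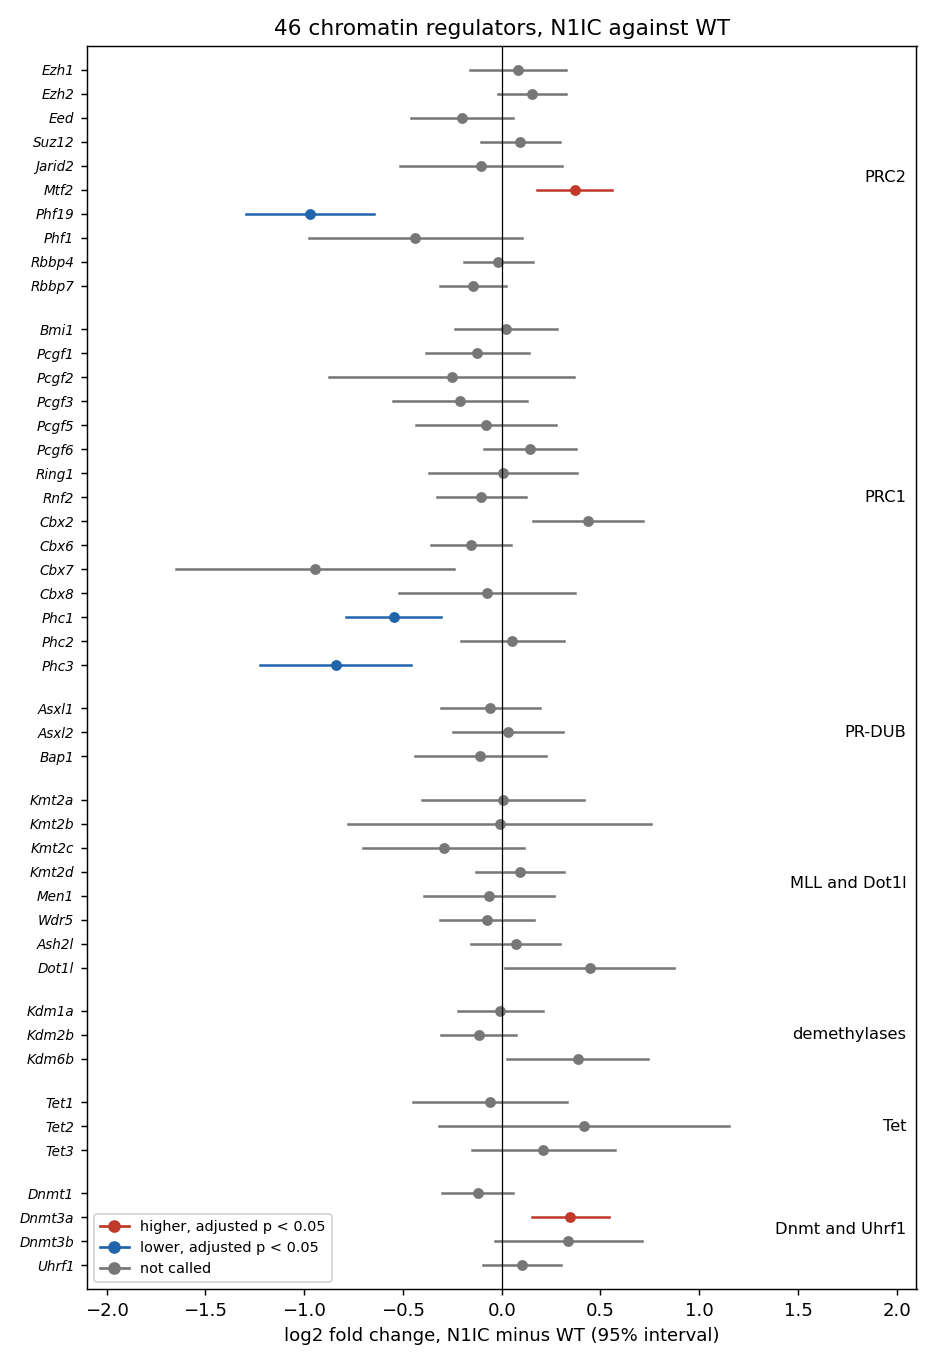
Log2 fold change of each member, N1IC minus WT, with its 95% interval, on the x axis, with the members on the y axis grouped by complex. Red and blue points are the 2 higher and 3 lower calls of limma, and grey points did not pass; most grey intervals lie within 0.5 of zero.

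Stretches of promoter sequence of 4 called members are shown, because active Notch1 works through the DNA-binding protein RBPJ, whose core motif is TGGGAA. They come from RefSeq promoter windows on GRCm38.p6, searched over the 250 bases before each start on both strands, with matches in capitals. Stretches inside the annotated gene are limited to the match and its flanks, so no stretch of Phf19 is printed. Mtf2 is at chr5:108065424-108065659 on the plus strand, Phc1 at chr6:122340228-122340477 and Phc3 at chr3:30969480-30969665 on the minus strand, and Dnmt3a at chr12:3891514-3891543 on the plus strand.
Mtf2: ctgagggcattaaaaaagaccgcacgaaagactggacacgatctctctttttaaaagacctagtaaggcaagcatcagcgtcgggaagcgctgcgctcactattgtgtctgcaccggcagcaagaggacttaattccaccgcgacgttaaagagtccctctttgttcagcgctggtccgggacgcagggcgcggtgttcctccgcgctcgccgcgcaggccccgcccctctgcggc
Phc1: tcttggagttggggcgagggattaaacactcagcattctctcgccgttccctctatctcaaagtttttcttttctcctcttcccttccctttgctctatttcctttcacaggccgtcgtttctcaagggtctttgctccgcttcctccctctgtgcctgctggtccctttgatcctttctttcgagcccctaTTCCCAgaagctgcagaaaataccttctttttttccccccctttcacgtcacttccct
Phc3: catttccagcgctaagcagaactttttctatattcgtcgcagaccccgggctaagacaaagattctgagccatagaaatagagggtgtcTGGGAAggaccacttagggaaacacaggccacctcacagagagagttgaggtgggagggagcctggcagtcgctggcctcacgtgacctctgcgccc
Dnmt3a: ggggcggggcccTGGGAAcggactggccag

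The core motif stood 58 bases before the start in Phc1, on the opposite strand, and 161 bases before it in Phc3. Dnmt3a held it in 1 of 3 windows, and neither window of Mtf2 nor the window of Phf19 held it. Windows were found for 41 of the 46 members, and 12 of these genes (29.3%) held a match, against 24.2% of 14452 tested genes with a window. Called members of both directions thus included genes with and without the letters. A match is a description of these letters and not a binding site. The windows of Mtf2, Phc1 and Phc3 shown whole or in part held 23, 8 and 12 CG pairs, and the other Mtf2 window held 2. The Phf19 window held 31. The windows of Dnmt3a held 38, 40 and, in the one with the match, 15. The median was 22 over the 57 windows of members and 12 over those of tested genes. No window was found for Pcgf1, Cbx2, Kmt2b, Ash2l or Kdm6b.

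The catalytic and core subunits of PRC2 showed no call. Median centring put Ezh1 at 0.40 (adjusted p = 0.0286), Ezh2 at 0.47 (0.0236) and Suz12 at 0.41 (0.0447), all called higher. In that fit 35% of all genes were called, and the median log2 fold change of all genes was 0.31. Ezh2, the main methyltransferase, read 12.26, 12.27 and 12.28 in WT replicates 1 to 3 and 12.48, 12.42 and 12.36 in N1IC. The N1IC arrays lay above all WT arrays, but the log2 fold change was only 0.15 ± 0.07 (SE, n = 3 per group; 95% interval -0.02 to 0.32), with an adjusted p of 0.238. Its paralog Ezh1 differed by 0.08, with an interval from -0.16 to 0.33. Eed, which binds the methyl mark, differed by -0.20 (-0.46 to 0.06), and Suz12, the scaffold, by 0.09 (-0.11 to 0.29). The histone chaperones Rbbp4 and Rbbp7 differed by -0.02 and -0.15 on their brightest probe sets, and Rbbp7 is X-linked. The 3 dimmer probe sets of Rbbp4 were all higher in N1IC, by 0.78, 1.54 and 0.71, without a call. For the probe set at 1.54 the groups did not overlap (95% interval 0.43 to 2.65, limma adjusted p = 0.0947). Rbbp7 was called in 1 of the 19 other fits, with an intensity trend (adjusted p = 0.0423), where 13.3% of all genes were called. Jarid2, a cofactor that helps PRC2 bind chromatin, differed by -0.11, with an interval from -0.52 to 0.31.

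The Polycomb-like proteins, which bind CG-rich DNA or methylated histone and tether PRC2, moved in opposite directions. Mtf2 rose and Phf19 fell. Mtf2 (probe set 1418514_at) read 11.79, 11.85 and 11.67 in WT replicates 1 to 3 and 12.14, 12.11 and 12.17 in N1IC. The groups did not overlap, and the N1IC arrays lay closer together than the WT arrays. This is a 1.29-fold rise from 11.77 ± 0.09 to 12.14 ± 0.03 (SD, n = 3), with a limma adjusted p of 0.0344. Mtf2 had 6 probe sets, and all 6 were higher in N1IC, with 4 called when each probe set was tested on its own (9.93% of all probe sets were called). The largest change of a called probe set was 1.26 ± 0.17 (SE), on a dimmer one that averaged 6.96 in WT. The other called ones differed by 0.37, 0.36 and 0.67. The call of Mtf2 was lost in each of the 6 fits that left out 1 array, with adjusted p between 0.0621 (without WT replicate 2) and 0.109 (without N1IC replicate 3) and log2 fold changes between 0.32 and 0.41. With sex as a covariate it stood at 0.29 (adjusted p = 0.285).

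Phf19 (1427920_at) showed the largest log2 fold change of the set. It read 8.72, 8.28 and 8.40 in WT and 7.41, 7.59 and 7.49 in N1IC, so that the lowest WT array stood above the highest N1IC array by several times the spread within N1IC. The level fell 1.96-fold, from 8.47 ± 0.23 to 7.49 ± 0.09 (SD, n = 3), at a limma adjusted p of 0.00869. Its call held without each single array, at an adjusted p between 0.0101 and 0.0380. It was lost with sex as a covariate (-0.78, adjusted p = 0.0980), with females alone (-0.78, 0.0680) and after repeated quantile normalization (-0.65, 0.0636). A second, dimmer probe set of Phf19 differed by -0.08 ± 0.08 (SE) and was not called. Phf1, the remaining Polycomb-like gene, read 6.24, 6.42 and 7.07 in WT and 6.08, 6.10 and 6.25 in N1IC. Its difference of -0.44 had an interval from -0.98 to 0.10 and did not pass (adjusted p = 0.276), with WT replicate 3 highest of all arrays.

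**Figure D2:**
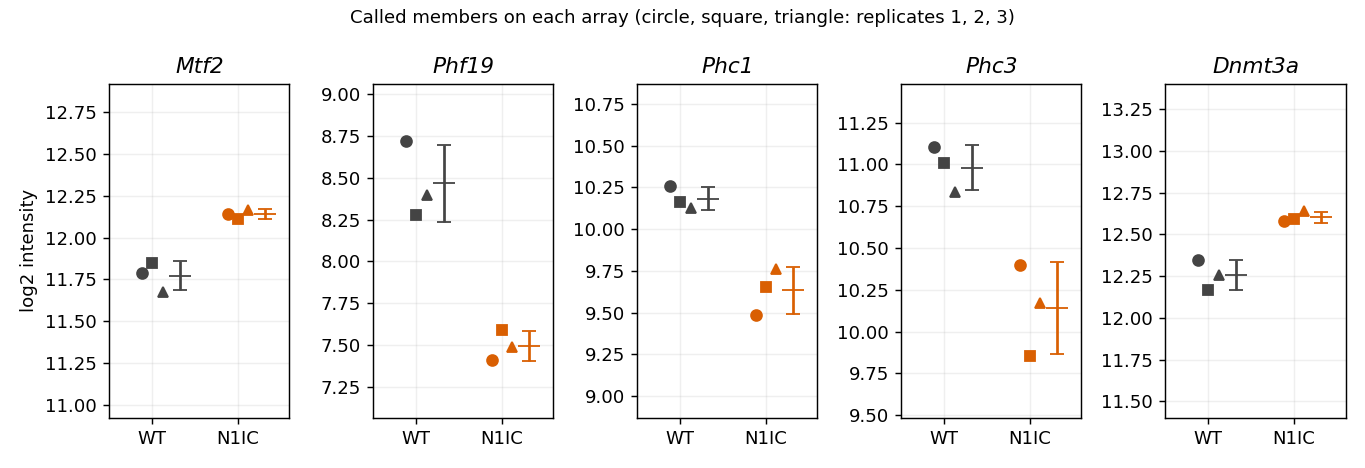
Log2 intensity (y axis, each panel spanning the same width of 2 units) of the 5 called members on every array, for WT and N1IC (x axis); points are arrays, and the dash with its bar is the mean ± SD of 3 arrays. In every panel the 3 N1IC arrays lie wholly above (Mtf2, Dnmt3a) or wholly below (Phf19, Phc1, Phc3) the 3 WT arrays.

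Within PRC1, the Polyhomeotic scaffold genes split, with Phc1 and Phc3 lower and Phc2 near its WT level. Polyhomeotic proteins polymerise and hold PRC1 in clusters. Phc1 (1423212_at) read 10.26, 10.16 and 10.13 in WT and 9.49, 9.66 and 9.76 in N1IC, with no overlap. It fell 1.46-fold, from 10.18 ± 0.07 to 9.64 ± 0.14 (SD, n = 3), at a limma adjusted p of 0.0207. Phc1 had 1 probe set, so no other reading of it was at hand. Phc3 (1455312_at) read 11.10, 11.01 and 10.84 in WT and 10.40, 9.85 and 10.17 in N1IC. It fell 1.79-fold, from 10.98 ± 0.13 to 10.14 ± 0.27, at a limma adjusted p of 0.0237, again without overlap. A dim second probe set of Phc3 averaged 3.42 in WT and 3.61 in N1IC and was not called.

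Phc2 read 11.12, 10.79 and 10.96 in WT and 10.98, 11.10 and 10.95 in N1IC, a difference of 0.05 with an interval from -0.21 to 0.32. Whether Phc1 and Phc3 differ from Phc2 in their change was not tested. The call of Phc1 was lost in 5 of the 6 fits that left out an array, all but the fit without N1IC replicate 3, with adjusted p of at most 0.0611 (without N1IC replicate 2). The call of Phc3 was lost without WT replicate 1 (adjusted p = 0.0589), WT replicate 2 (0.0712), WT replicate 3 (0.0537) or N1IC replicate 3 (0.0725). With sex as a covariate, Phc1 stood at -0.53 (adjusted p = 0.173) and Phc3 at -0.87 (adjusted p = 0.166). Median centring left them at -0.23 and -0.52, also not called.

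The ubiquitin ligases of PRC1 showed no call. Rnf2 and Ring1, its catalytic RING proteins, differed by -0.10 (-0.33 to 0.12) and 0.01 (-0.37 to 0.38). Bmi1 is the PCGF subunit of the canonical complex. On its brightest probe set it read 11.93, 11.82 and 11.64 in WT and 11.82, 11.92 and 11.71 in N1IC. There the groups overlapped fully. The dimmer probe set of Bmi1 read 11.07, 10.89 and 10.98 in WT and 10.66, 10.82 and 10.54 in N1IC, without overlap. That probe set differed by -0.30, with an interval from -0.56 to -0.05. It was not called (limma unadjusted p = 0.0282, adjusted p = 0.141). The other PCGF subunits were Pcgf2 and, in variant complexes, Pcgf1, Pcgf3, Pcgf5 and Pcgf6. They lay between -0.25 (Pcgf2) and 0.14 (Pcgf6). None of these passed, and Pcgf2 was set mainly by N1IC replicate 2, at 6.66 beside 7.53 and 7.54.

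Among the chromobox genes, whose proteins read the PRC2 mark, the closest to a call were Cbx2 and Cbx7, in opposite directions. Cbx2 read 8.83, 8.98 and 9.16 in WT and 9.50, 9.29 and 9.48 in N1IC, without overlap. Its difference was 0.44 ± 0.11 (SE), with an adjusted p of 0.0650. It passed with only the brighter 60% of genes (adjusted p = 0.0474), after repeated quantile normalization (0.0115) and after median centring (0.00576). Cbx7, the chromobox gene best known in stem cells, read 7.55, 6.97 and 7.11 in WT and 6.30, 5.73 and 6.76 in N1IC. Its difference was -0.95 ± 0.29 (SE), nearly as large as that of Phf19, but the arrays within each group were farther apart, and it did not pass (adjusted p = 0.0959). The 2 dimmer probe sets of Cbx7 differed by 0.06 and 0.10. Cbx6 and Cbx8 differed by -0.16 and -0.07 on their brightest probe sets.

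For 4 PRC1 genes, a dimmer probe set was called although the brightest was not. Of the 119 probe sets of all members, 7 were called higher and 4 lower, where 9.93% of all probe sets were called. Cbx6 had a second probe set that fell, from 10.04 ± 0.08 to 9.33 ± 0.15 (SD, n = 3), at an adjusted p of 0.0134. A dimmer probe set of Cbx8 rose by 0.59 ± 0.12 (SE) and 1 of 5 probe sets of Rnf2 rose by 0.65 ± 0.14, the latter of a kind that can bind related transcripts. The dimmest of 3 Pcgf6 probe sets was called higher, at 5.36 ± 0.46 in N1IC against 3.54 ± 0.25 in WT. The WT level was near that of the Y-linked gene Eif2s3y on the female arrays (3.45 to 3.55), so no fold is given for it, and the brightest probe set of Pcgf6 differed by 0.14. The position of these probe sets within the transcripts was not used here. With the mean of all probe sets per gene, Cbx6 was lower (-0.43, limma adjusted p = 0.0274), and Phc3 lost its call (-0.32, 0.202). Pcgf6 was called higher there, with its dimmest probe set in the mean.

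**Figure D3:**
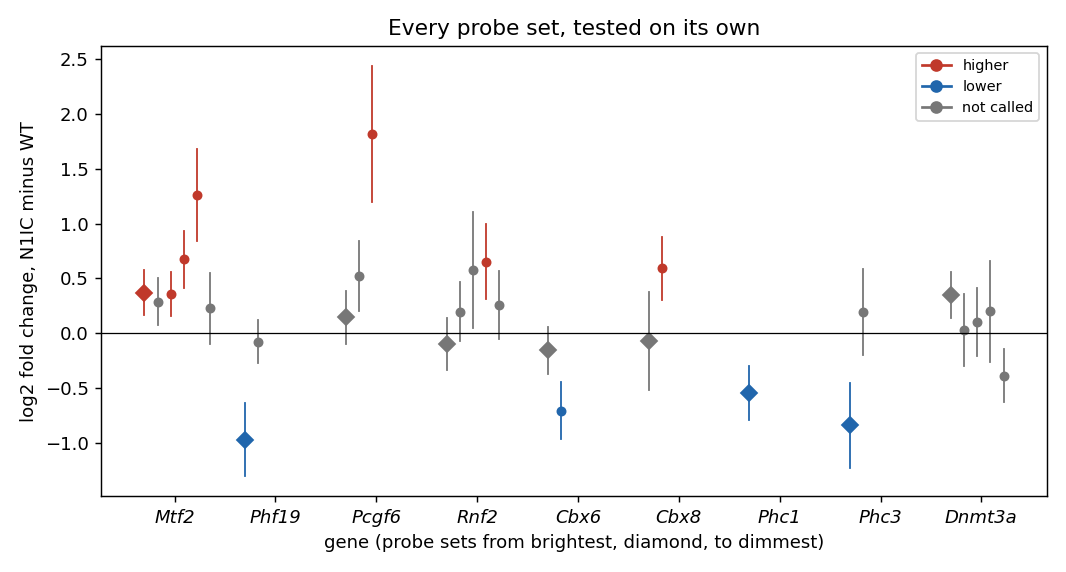
Log2 fold change with its 95% interval (y axis) of every probe set of the 9 genes with a call on any probe set or on the gene (x axis), each tested on its own. Diamonds are the brightest probe sets, which alone enter the gene test; those of Mtf2 all lie above zero, while Dnmt3a has 4 above and 1 below.

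Of the PR-DUB genes, which remove the ubiquitin that PRC1 adds, none was called, against 11.8% of all genes. None had an unadjusted p under 0.05, where 26.6% of all genes did. The deubiquitinase Bap1 differed by -0.11 (-0.44 to 0.22), and its partners Asxl1 and Asxl2 by -0.06 and 0.03. Bap1 had the smallest p of this group, and read 10.48, 10.44 and 10.86 in WT and 10.55, 10.36 and 10.55 in N1IC.

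No gene of the MLL group was called, against 11.8% of all genes. Of the 8, Dot1l alone had an unadjusted p under 0.05, against 26.6% of all genes. The count depends on the scaling, since median centring called Dot1l (0.77, adjusted p = 0.0328) and Kmt2d (0.41, 0.0406) higher. In that fit 35% of all genes were called. Dot1l, which methylates the core of histone H3 and is recruited by MLL fusions, read 11.45, 11.48 and 10.97 in WT and 11.82, 11.53 and 11.89 in N1IC. The arrays did not overlap, and the difference was 0.45 ± 0.17 (SE) with an adjusted p of 0.173. The methyltransferases Kmt2a, Kmt2b and Kmt2d differed by 0.01, -0.01 and 0.09, and Kmt2c by -0.29 (-0.70 to 0.11). Kmt2b was the least precise of the group, with an interval from -0.78 to 0.76, since it ranged from 8.64 to 9.50 in WT and from 8.47 to 9.39 in N1IC. The shared subunits Wdr5 and Ash2l and the adaptor Men1 lay between -0.07 and 0.07.

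Within N1IC, replicate 2 read lowest for 6 of the 8 MLL group genes and for 23 of all 46 members, where this array was lowest for 28.8% of all genes. Kmt2c, at 11.68, 11.16 and 11.76, and Kmt2a, at 12.38, 11.86 and 12.19, are examples. In WT, Kmt2c lay between 11.82 and 11.84 on all 3 arrays. Other arrays also held uneven shares. WT replicate 3 was lowest in WT for 5 of the 8 MLL group genes, against 31.5% of all genes, and WT replicate 1 was highest for 22 of the 46 members, against 34.2%. The causes of these orders were not tested.

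**Figure D4:**
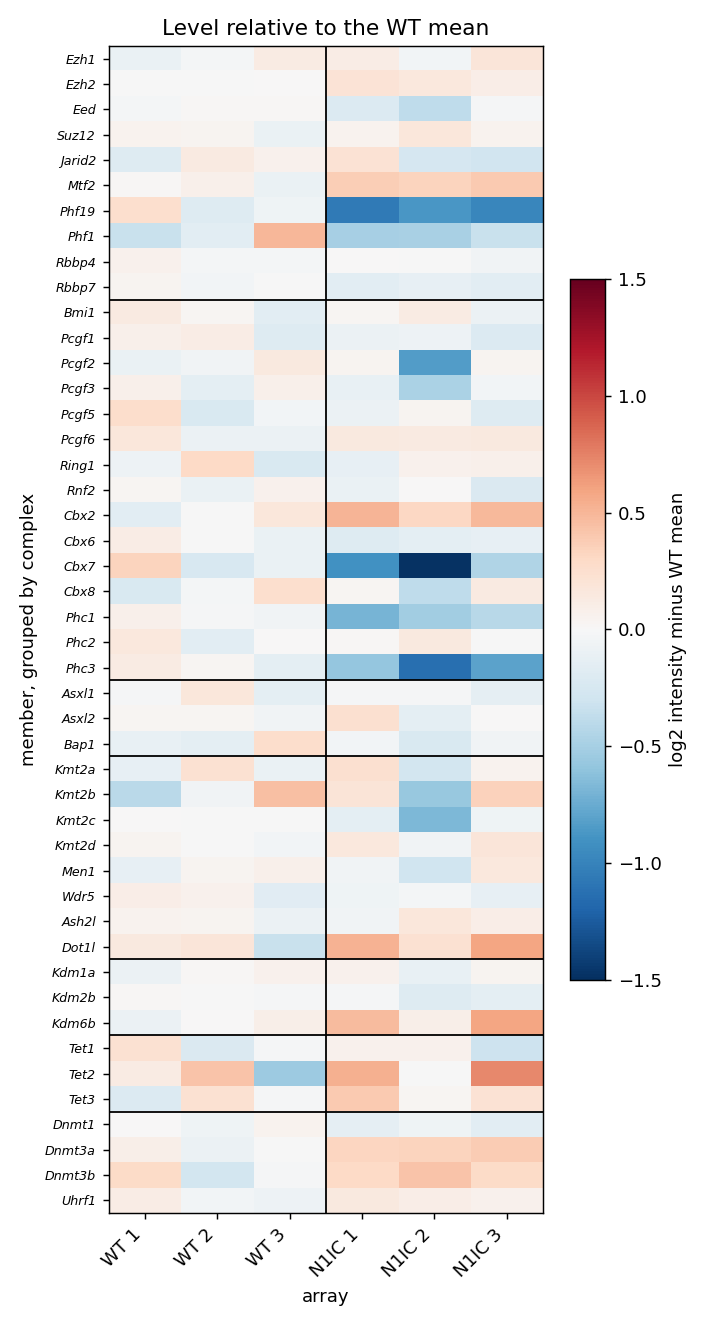
Level of each member (y axis, with lines between the complexes) on each of the 6 arrays (x axis), as log2 intensity minus the mean of the 3 WT arrays. Phf19, Cbx7, Phc1 and Phc3 are blue on all N1IC arrays, Mtf2, Cbx2 and Dnmt3a are red on all of them, and N1IC replicate 2 is the lowest N1IC array for 6 of the 8 genes of the MLL group.

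Among the demethylases, Kdm6b, which removes the PRC2 mark, had the largest difference. It read 12.67, 12.76 and 12.85 in WT and 13.24, 12.84 and 13.35 in N1IC, where replicate 2 overlapped WT. The difference was 0.38 ± 0.15 (SE), with an adjusted p of 0.163. Without N1IC replicate 2 it passed, at 0.53 (adjusted p = 0.0432), and both dimmer probe sets were also higher, by 1.30 and 1.24, without a call. Kdm1a, which removes methyl groups from active promoters, differed by -0.01 (-0.22 to 0.21), and Kdm2b, which binds unmethylated CG pairs with a variant PRC1, by -0.12 (-0.31 to 0.07). No demethylase of the set was called, against 11.8% of all genes. Kdm6b alone had an unadjusted p under 0.05, against 26.6% of all genes. Median centring called both Kdm6b (0.70, adjusted p = 0.0175) and Kdm1a (0.31, 0.0464) higher, where 35% of all genes were called.

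The Tet genes varied between arrays of a group. On the brightest probe sets none was called or had an unadjusted p under 0.05, against 11.8% and 26.6% of all genes. Tet2 read 9.70, 9.997 and 9.02 in WT and 10.10, 9.57 and 10.30 in N1IC, a difference of 0.41 with an interval from -0.32 to 1.15. A 2-fold rise of Tet2 was therefore not outside what these arrays allow. Tet3, which had the smallest p of the group, read 8.83, 9.26 and 9.01 in WT and 9.43, 9.06 and 9.25 in N1IC, so the groups overlapped. Its difference was 0.21 (-0.15 to 0.57). Median centring called Tet3 higher, at 0.53 (adjusted p = 0.0360), where 35% of all genes were called. The signs of Tet2 and Tet3 were not stable, since with sex as a covariate, or with females alone, both stood at -0.01. Leaving out 1 array moved Tet2 between 0.14 (without WT replicate 3) and 0.63 (without WT replicate 2) and Tet3 between 0.11 (without WT replicate 1) and 0.32 (without WT replicate 2). Tet1 differed by -0.06 (-0.45 to 0.33) on its brightest probe set. A dimmer probe set of Tet1 differed by -0.44 (-0.82 to -0.06), without overlap. It was not called (limma unadjusted p = 0.0293, adjusted p = 0.144), and the dimmest ones differed by -0.004 and 0.04.

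Of the DNA methylation genes, the de novo enzyme Dnmt3a rose on its brightest probe set (1423064_at). It read 12.35, 12.16 and 12.25 in WT and 12.58, 12.59 and 12.64 in N1IC, with no overlap. This was a 1.27-fold rise, from 12.25 ± 0.09 to 12.60 ± 0.03 (SD, n = 3), at a limma adjusted p of 0.0435. The 5 probe sets of Dnmt3a did not move alike, since 3 others differed by 0.03, 0.10 and 0.20 and the dimmest by -0.39 ± 0.10 (SE). That dimmest probe set read 10.23, 10.12 and 9.94 in WT and 9.68, 9.73 and 9.72 in N1IC, also without overlap, and none of the 5 passed on its own (adjusted p = 0.0579 for the brightest). With the mean of all its probe sets Dnmt3a stood at 0.06 (adjusted p = 0.763). Its call was lost in each of the 6 fits that left out 1 array, with adjusted p between 0.0501 (without WT replicate 1) and 0.131 (without N1IC replicate 3), and with sex as a covariate (0.44, adjusted p = 0.133).

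Dnmt3b, the other de novo enzyme, read 12.07, 11.51 and 11.76 in WT and 12.08, 12.21 and 12.06 in N1IC, a difference of 0.34 that did not pass (adjusted p = 0.227). It moved between 0.20 (without WT replicate 2) and 0.48 (without WT replicate 1) when 1 array was left out, and stood at 0.61 with sex as a covariate (adjusted p = 0.150). Median centring called Dnmt3b (0.66, adjusted p = 0.0378) and Uhrf1 (0.42, 0.0442) higher, where 35% of all genes were called. Dnmt1, which copies methylation after replication, differed by -0.12 (-0.30 to 0.06), and Uhrf1, which guides it to newly made DNA, by 0.10 (-0.10 to 0.30). A second Uhrf1 probe set was higher by 0.54 ± 0.14 (SE), without a call. Ezh2, Dnmt1 and Uhrf1 are commonly higher in dividing cells. Of 29 measured cell cycle genes none rose and 1 fell, Foxm1, by 0.45 on the log2 scale, and their median difference was 0.00, where 11.8% of all genes were called. Repeated quantile normalization called none of them, and median centring called 11 higher and 0 lower, with a median of 0.32. The median of all genes after median centring was 0.31. The summed intensity of these genes lay between 129140 and 129840 in WT and between 127170 and 130880 in N1IC.

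Beyond the 46 members, 94 further chromatin genes of the same pathways were read from 4 lists. Of these, 1 rose and 7 fell, with a median log2 fold change of -0.04. The 8 calls are 8.51% of these genes, against 11.8% of all genes. Other Polycomb genes gave 3 lower of 27, which were Scmh1, which joins PRC1, Auts2, a partner of variant PRC1, and Foxk1, a partner of PR-DUB. Scmh1 lay between 10.06 and 10.45 in WT and at 9.41 or below in N1IC. The log2 fold changes of Auts2 and Foxk1 were -1.44 and -0.39. Other Trithorax and related genes gave 2 lower of 30, the Dot1l partner Mllt6 and the chromatin remodeller Smarca2, at -0.51 and -0.48. Other demethylase genes gave 1 higher and 2 lower of 18. Kdm5b, which removes the methyl mark that MLL enzymes add, rose by 0.62 ± 0.10 (SE), while the demethylase Kdm4b and the corepressor Rcor2 stood at -0.58 and -0.48.

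None of 20 other DNA methylation genes was called by limma, against 11.8% of all genes. Of these 20, 4 had an unadjusted p under 0.05, against 26.6% of all genes. The smallest p values were those of Smug1, a uracil glycosylase, at -0.54 (adjusted p = 0.0787), and Apobec1, a cytidine deaminase, at -0.43 (0.0818). With each array left out in turn, other Polycomb genes gave 1 or 2 lower calls and other Trithorax genes 0 or 1. With sex as a covariate the 4 lists held 1 call, a higher one among the demethylase genes, and with females alone none. Median centring turned the median of all 4 lists positive, between 0.25 and 0.32, and turned the balance of calls. It gave 6 higher and 2 lower among other Polycomb genes, 7 and 0 among other Trithorax genes, 2 and 0 among other demethylase genes and 6 and 0 among other DNA methylation genes. In the same fit the median of all genes was 0.31, and 35% of all genes were called, 84.1% of these higher.

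Genes that Polycomb or MLL proteins are known to control were read as well. Of 20 measured, 9 fell and 1 rose, beside 11.8% called among all genes. The other 10 were not called. Among these, Cdkn2a, Cdkn2b, Gata4, Gata6, Pax6 and Sox17 were dim, so changes may be understated. Their group means lay between 4.16 (Sox17, N1IC) and 5.79 (Pax6, WT). The rest of the uncalled genes differed by between -0.63 (Hoxb4) and 0.36 (Cdkn1a). The list was chosen with earlier results on its Hox genes, Meis1 and Mecom known, so its direction is not independent evidence. Meis1, a cofactor of Hox proteins, and Mecom, a stem cell regulator, had log2 fold changes of -1.89 and -2.81. Those of Hoxa10 and Eya1, both transcription regulators, were -3.07 and -2.08. Igf2bp3, an RNA-binding protein of fetal cells, was the gene that rose, by 2.39 ± 0.34 (SE), and was named after its value was seen. With each array left out in turn, 6 or 7 of the list were lower, with sex as a covariate 3, and after median centring 4 were higher and 7 lower. No chromatin mark was measured, so levels of the regulators and of these genes are given side by side without a link.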

How the data were processed

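Per the labels' protocols, 5 ng of RNA from each of 6 LSK samples was amplified (Nugen Ovation), tagged with biotin and read on 1 Affymetrix array. The deposited values are probe set intensity on a linear scale, made by the authors with RMA, per the submitters' processing notes; no settings are named there. The linear scale was read from the value range, and log2 was taken. Of 45101 probe sets, 34945 carried exactly 1 gene symbol and were used, after update by gene ID to RefSeq symbols (GRCm38.p6), while 64 controls, 932 with several symbols and 9160 with none were left out. The brightest probe set over 6 arrays stood for each of 18193 genes.

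The groups were compared in R 4.3.3 with limma 3.58.1 (lmFit and eBayes without covariates, two-sided, with 4 residual and 2.05 prior degrees of freedom). P-values were adjusted by Benjamini-Hochberg across the 18193 genes, and genes under 0.05 are called. Fold changes run from WT to N1IC, so positive values are higher in N1IC, and 95% intervals use the moderated error. The test was tested on simulated data. No detection calls were used, so dim probe sets may understate changes, and the number of arrays limits precision. The labels name separate mice but not their litters. The members, gene lists and tests were chosen with earlier results of these data known. All members are reported; those called, and the member with the smallest p in each group, are given on every array, with up to 4 called genes of each chromatin list. Cell type lists are given as counts and summed intensity, with the calls named for the neutrophil and macrophage list. Alternatives were the replicate block, sex, females alone, normalization, a filter on dim genes, probe set choice, variance prior, array weights, thresholds and leaving out each array. Plots used matplotlib 3.10.9.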

Additional observations from a re-analysis of the deposited data

How the results depend on the processing

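All values here come from limma on 3 arrays a group or fewer, and 19 other settings were run. Over all genes, 632 were higher and 1512 lower as reported. The replicate block gave 357 and 936, sex as a covariate 116 and 333, females alone 142 and 504, and a threshold of 0.01 gave 209 and 536. A threshold of 0.1 gave 1038 higher, each probe set on its own 1320 higher, and median centring 5359 higher. Leaving out 1 array gave 332 to 509 higher and 835 to 1420 lower. Of the members, 2 were higher and 3 lower. With the replicate block 0 were higher, with sex as a covariate or females alone 0 were higher and 0 lower, with a threshold of 0.01 there were 0 and 1, and with each probe set on its own 1 was higher. Median centring gave 14 members higher and 1 lower, and leaving out 1 array gave 0 to 1 higher and 1 to 2 lower. The labels do not say whether replicate numbers pair the mice. Deviations of same-numbered arrays correlated at -0.09, -0.07 and 0.07, which with 3 arrays a group cannot decide whether mice were paired. The replicate block left Mtf2, Phc1 and Dnmt3a at limma adjusted p of 0.117, 0.0840 and 0.123. It called 1 of 20 other DNA methylation genes lower. Mtf2, Phf19, Phc1, Phc3 and Dnmt3a kept their direction in all 19 settings, and were called in 9, 16, 9, 10 and 7 of them. Kdm1a turned from -0.01 to 0.31 with a call under median centring. Of 873 single-member values, 44 lost a call and 20 gained one. In 85 of them, from 28 members, the sign was the other than as reported, with a call for Kdm1a alone. Phf1 was below the filter that kept the brighter 60% of genes. Fits with fewer arrays also call fewer genes overall; other causes were not tested.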
